A study of Mus musculus with 9 samples.

Results

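The complement and coagulation genes of the mouse kidney were followed through obstruction of the ureter and its release. The members were 40 genes named by symbol, 25 of the complement system and 15 of coagulation and its anticoagulant control. A member was measured by array probes whose RefSeq accession carries its symbol. The brightest of a gene's probes stood for it, among those that at least 3 of the 9 arrays measured well above background. By this rule 34 of the 40 members could be tested, among 17740 genes in all.

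Single-colour Agilent arrays were hybridized with total RNA of the whole left kidney of male ISAM mice aged 10 weeks, on a mixed strain background. ISAM mice are a model of anaemia from lack of erythropoietin: all 9 mice, controls included, carried the genotype Epo-/-::3.3K-Epo3'-Tg458, a knockout of Epo together with an Epo transgene, so no kidney came from a mouse of normal genotype. In the clip arm (3 kidneys) the left ureter was closed with a vascular clip for 2 days, and in the release arm (3 kidneys, ClipR-14 in the labels) the clip had been taken off and 12 days had passed. The control arm held 2 sham-treated kidneys and 1 untreated kidney, whose day of collection is not given. The labels number the kidneys but do not describe the animals further, so p-values measure the spread between these samples. Levels are log2 of the signal over the array's 75th percentile, so a level of 0 is that percentile, and levels of different probes cannot be set against each other. Changes are differences of arm means on this log2 scale ± the standard error of the limma fit (n = 3 per arm), and adjusted p is the Benjamini-Hochberg value over all genes, with 0.05 as the threshold. The 3 comparisons share arrays, so they are not independent of each other.

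Complement is a cascade of plasma and tissue proteins that tags particles and damaged cells. It is started by C1q with C1r and C1s, by lectins such as collectin 11 with the MASP proteases, or through factor B, factor D and properdin. All 3 routes cleave C3 and can go on to C5 and the membrane attack complex, while membrane and fluid regulators hold the cascade back on host cells. Coagulation starts from tissue factor and proceeds through serine proteases to thrombin, fibrin and factor XIII, and is held in check by the protein C system, tissue factor pathway inhibitors and serpins. Most of these proteins are made in the liver, but tubule cells, macrophages, fibroblasts and endothelium also make some of them.

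The arrays were of like quality: 52.0% to 57.5% of probes were well above background, and the correlation between 2 arrays of an arm, over the genes tested, was 0.979 to 0.99. Slides 1 and 2 each held a sham, a clip and a release array. Slide 3 was scanned on another date and held the untreated array, a clip array and a release array. Markers of the labelled tissue were present on all arrays: the summed level of 6 proximal tubule markers (signals over the 75th percentile, added) was 471 to 573 in control, 120 to 187 in clip and 411 to 514 in release kidneys. The sum of 6 thick limb and distal tubule markers was 423 to 483, 154 to 189 and 469 to 510. In whole-kidney RNA, fewer cells of a type and less RNA per cell cannot be told apart.

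After 2 days of obstruction, 16 of the 34 tested members rose, 6 fell and 12 did not pass the test. C3, the central component of complement, C1q, C4b, factor I, properdin and coagulation factor XIII A (F13a1) were among the rises, and the regulator Cd55, the lectin Colec11, factor V (F5) and protein C (Proc) among the falls. Over all genes 48.9% were called in this comparison, 21.4% higher and 27.5% lower. Quantile normalization turned this balance of all genes, to 4544 higher and 4039 lower. The median change was 0.52 over the tested members and -0.09 over all genes. The complement side had 11 rises and 3 falls among 21 tested genes, and the coagulation side had 5 rises and 3 falls among 13. With the slide as a block, 17 members were higher and 6 lower, beside 4459 higher and 5879 lower of all genes. For each of the 22 called members the clip and control arrays did not overlap. A like direction within each of the 3 slides was fixed by this and adds no support. Of the called members, C3ar1, F13a1, F5 and Serpind1 passed the filter on background only through the arm in which they were brightest, so that their calls were partly fixed by the filter. Of the 30 other tested members, 13 rose and 5 fell. The clip and control arrays did not overlap for 23 of the 34 members, and for 58.6% of all genes.

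**Figure D1:**
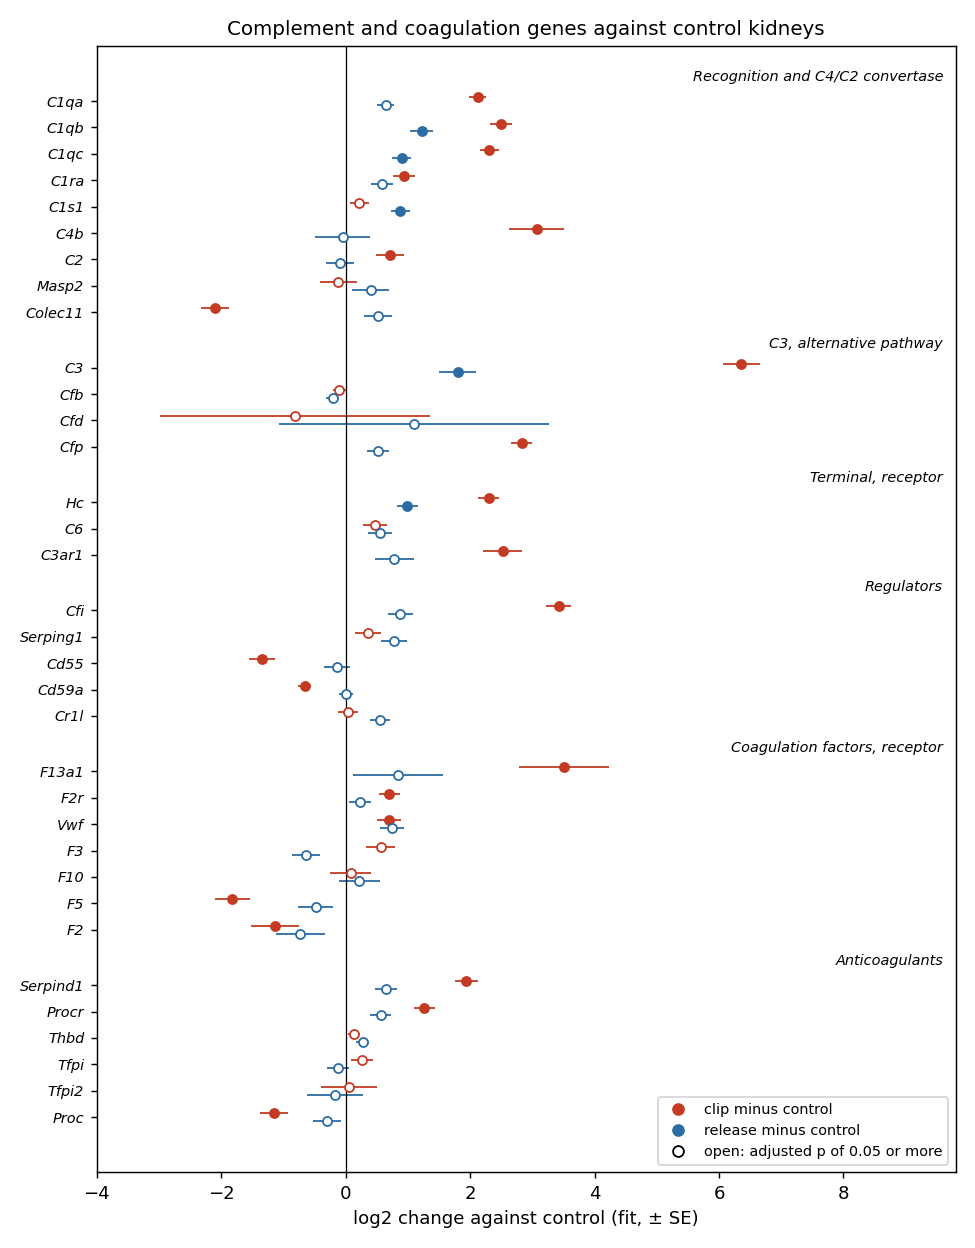
Log2 change against control for the 34 tested members, ordered by role, for clip kidneys (red) and release kidneys (blue); points are fitted changes, bars are ± SE and open points did not pass an adjusted p of 0.05. C3 has the largest clip change at 6.36, and the 5 filled blue points are C1qb, C1qc, C1s1, C3 and Hc.

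At 12 days after clip removal, 5 members were higher than in control kidneys (C1qb, C1qc, C1s1, C3 and Hc), none was lower and 29 did not pass. Over all genes 1.83% were called in this comparison, 1.46% higher and 0.372% lower. At an unadjusted p under 0.05, 19 of the 34 members and 3811 of all genes passed. The median change was 0.54 over the members and -0.01 over all genes. None of the 5 calls held under every alternative. With the slide as a block 9 members were higher and 0 lower (the 5 named, with C1ra, Cfi, Cfp and Serpind1), beside 751 higher and 412 lower of all genes. Of these 9, Serpind1 was not well above background on any control or release array, so its call is not a measured difference. Against the clip arm, 14 members were lower and 7 higher in release kidneys, with a background of 41.0% of all genes called, 17.4% lower and 23.6% higher. Without the 4 members that passed the filter through 1 arm, 11 of 30 were lower and 6 higher. The release and clip arrays did not overlap for 24 members (54.8% of all genes), and the release and control arrays for 18 (27.2% of all genes).

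The 3 chains of C1q, the recognition molecule of the classical pathway, moved alike. C1qb had levels of -0.51 and -0.43 in the sham arrays, -0.71 in the untreated array, 2.32, 2.00 and 1.54 in clip kidneys and 0.65, 0.66 and 0.72 in release kidneys. The 3 arms did not overlap for C1qb, with release kidneys between control and clip. It rose by 2.50 ± 0.18 on the log2 scale in clip kidneys (5.66-fold, adjusted p = 1.7e-05) and was 1.22 ± 0.18 above control after release (2.33-fold, adjusted p = 0.0295). C1qc stood at 0.87, 0.70 and 1.04 in control (sham 1, sham 2 and untreated, the order used below), at 3.21, 3.27 and 3.06 in clip and at 1.56, 1.71 and 2.05 in release kidneys. Its arms did not overlap either, and the changes were 2.31 ± 0.15 for clip (4.97-fold, adjusted p = 9.96e-06) and 0.90 ± 0.15 for release (1.87-fold, adjusted p = 0.0358). C1qa stood at 0.99, 0.53 and 0.73 in control, 2.89, 2.94 and 2.77 in clip and 1.28, 1.31 and 1.57 in release kidneys. C1qa rose by 2.12 ± 0.14 in clip kidneys (4.34-fold, adjusted p = 1.1e-05), and its release change of 0.64 ± 0.14 missed the threshold (adjusted p = 0.0585) although the arms did not overlap. From clip to release C1qa fell by 1.48, C1qb fell by 1.28 and C1qc fell by 1.41, each past the threshold (largest adjusted p = 0.00076). The release calls of C1qb and C1qc depended on single arrays. C1qb lost its call without sham 1, sham 2, clip 2 or any 1 release array (adjusted p 0.05 to 0.114), and C1qc without either sham array or any 1 of clip 1, clip 2, release 2 and release 3 (0.0564 to 0.123).

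The 3 C1q genes are neighbours on chromosome 4, in the order C1qb, C1qc and C1qa. Because they changed together, the 250 bases before the start of C1qb (chr4:136886201-136886450, minus strand) and of C1qc (chr4:136892915-136893164, minus strand) are shown from RefSeq on GRCm38.p6, 5′ to 3′. Capitals mark matches to the ETS core GGAAGT on either strand, the core bound by the macrophage factor PU.1 among other ETS proteins. C1qa had no entry in the promoter table.
C1qb: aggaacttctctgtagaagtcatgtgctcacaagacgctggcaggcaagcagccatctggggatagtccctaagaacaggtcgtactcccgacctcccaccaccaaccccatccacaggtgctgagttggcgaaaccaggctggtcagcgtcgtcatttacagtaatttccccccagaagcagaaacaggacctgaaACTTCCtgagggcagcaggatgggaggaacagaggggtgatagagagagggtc
C1qc: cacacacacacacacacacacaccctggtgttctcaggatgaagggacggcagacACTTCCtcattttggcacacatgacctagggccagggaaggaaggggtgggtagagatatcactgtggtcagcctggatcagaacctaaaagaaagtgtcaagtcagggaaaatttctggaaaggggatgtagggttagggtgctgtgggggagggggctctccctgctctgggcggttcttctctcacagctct
The match lay 53 to 48 bases before the start in C1qb and 195 to 190 bases before it in C1qc. Of 27025 promoters of this length, 20.0% held a match to this core, as did 8 of the 30 members with a promoter entry (26.7%). The match is a description of the letters and not a site.

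Markers of macrophages and monocytes moved in the same direction as the C1q chains. Of 10 listed, 9 were tested (Cd68 had no probe), and 8 were higher in clip kidneys, with Csf1r the exception (change 0.19, adjusted p = 0.228). Their summed level was 6.43 to 8.01 in control, 24 to 27 in clip and 10.2 to 12.5 in release kidneys. Lyz2 and Ccr2 were not well above background in any control array. After release 3 of the 9 were higher than control. The part of these cells in the C1q levels was not tested.

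The proteases of the C1 complex, C1r and C1s, are encoded by adjacent genes on chromosome 6, and they did not change in parallel. C1ra stood at -0.49, -0.29 and -0.24 in control, 0.32, 0.83 and 0.64 in clip and -0.09, 0.47 and 0.33 in release kidneys. C1ra rose by 0.94 ± 0.18 in clip kidneys (1.91-fold, adjusted p = 0.00273), and its release change of 0.58 ± 0.18 did not pass (adjusted p = 0.124) except with the slide as a block (0.0345). C1s1 stood at -0.30, -0.66 and -0.54 in control, -0.33, -0.05 and -0.46 in clip and 0.32, 0.56 and 0.27 in release kidneys. The clip arrays of C1s1 overlapped the controls and the release arrays lay above all others. The clip change was 0.22 ± 0.15 (adjusted p = 0.242), while release kidneys were 0.88 ± 0.15 above control (1.85-fold, adjusted p = 0.0362) and 0.66 ± 0.15 above clip (adjusted p = 0.00706). C1s1 was the 1 member higher in release kidneys than in both other arms. Its call against control was lost without any 1 of sham 1, sham 2, untreated 1, clip 1, release 1, release 2 or release 3 (adjusted p 0.0524 to 0.129), and the dimmer C1s1 probe gave 0.42 ± 0.10 (adjusted p = 0.0776). The genes C1rb and C1s2 are near-identical copies of C1ra and C1s1, and the probes may not separate them. C1rb, from the list of other complement genes, rose by 0.90 ± 0.09 in clip kidneys and was 0.44 ± 0.09 above control after release (adjusted p = 0.0491). Fibroblasts are a known source of C1r and C1s. Of 6 fibroblast markers 5 were higher in clip kidneys and 4 after release, with sums of 20.9 to 28.6 in control, 108 to 133 in clip and 40.2 to 56.4 in release kidneys, and their part in the C1s1 level was not tested.

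C4b and C2 supply the C3 convertase of the classical and lectin pathways. C4b stood at -1.27, -0.37 and -1.34 in control, 2.77, 1.27 and 2.20 in clip and -0.49, -1.03 and -1.61 in release kidneys. Every clip array lay above every other array, and the release arrays overlapped the controls. C4b rose by 3.07 ± 0.44 (8.42-fold, adjusted p = 0.000557) and was at -0.05 ± 0.44 against control after release (adjusted p = 0.96). The probe may also detect the near-identical copy C4a, whose own probe did not pass the filter. C2 stood at 3.70, 4.40 and 4.28 in control, 4.92, 4.78 and 4.81 in clip and 4.24, 4.27 and 3.60 in release kidneys. The rise of C2 was small, 0.71 ± 0.23 (1.63-fold, adjusted p = 0.03), and its dimmer probe rose by 0.86 ± 0.25 (adjusted p = 0.022). The clip call was lost without sham 1, clip 1, clip 2 or clip 3 (adjusted p 0.0627 to 0.085) and after normexp background correction (0.57, adjusted p = 0.111). From clip to release C2 fell by 0.80 ± 0.23 (adjusted p = 0.0215), a call that was lost without clip 1, clip 2, clip 3 or release 3 (0.0502 to 0.0648).

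Colec11, a collectin that binds sugars and starts the lectin pathway, went the other way. It stood at -1.89, -1.59 and -1.79 in control, -3.96, -3.44 and -4.16 in clip and -1.16, -1.59 and -0.95 in release kidneys. All clip arrays were below all others. Colec11 fell by 2.10 ± 0.22 in clip kidneys (4.28-fold, adjusted p = 9.83e-05), and release kidneys were 2.62 ± 0.22 above clip (6.15-fold, adjusted p = 4.82e-05) and 0.52 ± 0.22 above control (adjusted p = 0.215). After normexp correction, whose added offset compresses low signals, the clip change was -0.37 (adjusted p = 0.361) and the release change against clip was 0.69 (adjusted p = 0.132). Of the MASP proteases that collectins activate, Masp2 differed in no comparison past the threshold (change -0.12 ± 0.30 for clip, adjusted p = 0.757, and 0.40 ± 0.30 for release, adjusted p = 0.469). Masp1 was well above background on 1 array only, sham 1 at -2.64, against -6.82 to -5.54 on the other 8.

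C3 changed most among the 34 tested members. Its levels were 1.37, 0.72 and 1.80 in control, 7.41, 7.90 and 7.67 in clip and 2.59, 3.27 and 3.42 in release kidneys. The arms did not overlap. C3 rose by 6.36 ± 0.30 in clip kidneys (82.1-fold, adjusted p = 3.08e-06), and a dimmer C3 probe was well above background on the clip arrays alone (the mean of both probes gave 5.73). From clip to release C3 fell by 4.56 ± 0.30 (23.7-fold, adjusted p = 1.74e-05), which left release kidneys 1.80 ± 0.30 above control (3.47-fold, adjusted p = 0.0382). The release call was lost without any 1 of sham 1, sham 2, clip 1, clip 2, clip 3, release 2 or release 3 (adjusted p 0.0541 to 0.131), and the change was 1.22, 2.55 and 1.62 within slides 1, 2 and 3. Of 8 hepatocyte markers 4 were tested and 3 were lower in clip kidneys: Alb, which fell by 2.45, and Apoa2 and Ttr, neither of which was well above background on any clip array. Apoa1 and Ahsg were not well above background on any array, and Serpina1a and Cps1 had no probe. Apob did not pass (-0.22, adjusted p = 0.467). The sums, made up mostly of Apob, were 5.66 to 9.25 in control, 4.94 to 6.49 in clip and 7.15 to 9.48 in release kidneys.

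**Figure D2:**
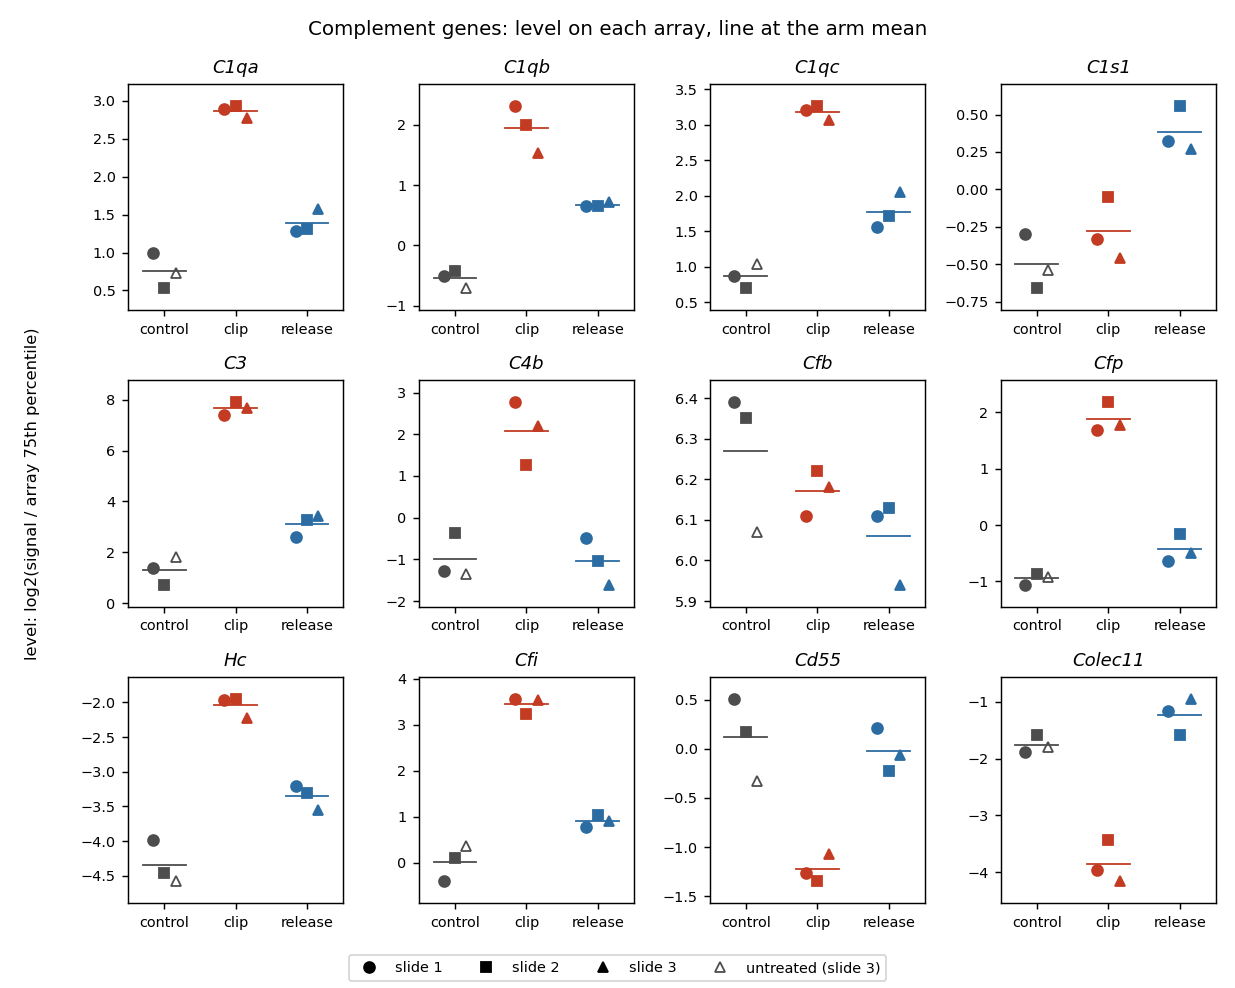
Level of 12 complement genes on each of the 9 arrays (log2 of signal over the array's 75th percentile; each panel has its own axis), by arm, with symbols for the slide, an open triangle for the untreated kidney and a line at the arm mean. Clip arrays lie above all others for C3, C4b, Cfp, Hc, Cfi and the C1q chains and below all others for Cd55 and Colec11, while Cfb spans 5.94 to 6.39 over all arrays.

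As C3 changed most, the 250 bases before its start (chr17:57228137-57228386, minus strand, GRCm38.p6) are shown from RefSeq, 5′ to 3′, with a match to the C/EBP motif TTGCNNAA in capitals. C/EBP factors are known regulators of acute-phase genes. The promoter of Colec11 (chr12:28623331-28623580, minus strand), the complement gene that fell most among the members, is shown beside it with a match to the STAT motif TTCNNNGAA in capitals.
C3: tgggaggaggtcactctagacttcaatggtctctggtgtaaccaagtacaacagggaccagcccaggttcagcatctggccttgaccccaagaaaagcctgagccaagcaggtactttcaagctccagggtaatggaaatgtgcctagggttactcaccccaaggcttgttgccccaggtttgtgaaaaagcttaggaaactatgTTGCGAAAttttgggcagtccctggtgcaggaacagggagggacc
Colec11: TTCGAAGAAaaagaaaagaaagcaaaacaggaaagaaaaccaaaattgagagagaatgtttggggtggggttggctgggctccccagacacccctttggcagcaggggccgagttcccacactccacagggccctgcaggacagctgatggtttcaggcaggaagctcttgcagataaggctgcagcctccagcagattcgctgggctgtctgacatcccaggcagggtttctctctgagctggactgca
The C3 match lay 45 to 38 bases before the start, and the Colec11 match 250 to 242 bases before it. Matches to TTGCNNAA on either strand were found in 9.6% of the 27025 promoters and in 4 of the 30 members with an entry (13.3%). Matches to TTCNNNGAA, which reads the same on both strands, were found in 7.2% of promoters and in 3 of the 30 members (10.0%). Among the 11 members with an entry that rose in clip kidneys, 2 held the C/EBP motif, 3 the ETS core and 0 the STAT motif. In the 4 promoters shown no match overlapped another. No motif was tested for enrichment.

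Of the alternative pathway, properdin changed and its enzymes did not pass. Cfp, which encodes properdin, the protein that stabilises the alternative convertase, stood at -1.06, -0.86 and -0.92 in control, 1.68, 2.18 and 1.78 in clip and -0.63, -0.16 and -0.49 in release kidneys. Its arms did not overlap. Cfp rose by 2.83 ± 0.17 in clip kidneys (7.09-fold, adjusted p = 7.08e-06; 2.15 after normexp correction), fell by 2.31 ± 0.17 from clip to release and was at 0.52 ± 0.17 against control after release (adjusted p = 0.133, and 0.0388 with the slide as a block). Cfb, which encodes the protease factor B and is separated from C2 on chromosome 17 by Mir6972 alone, stood at 6.39, 6.35 and 6.07 in control, 6.11, 6.22 and 6.18 in clip and 6.11, 6.13 and 5.94 in release kidneys. These 3 ranges overlapped. The Cfb change was -0.10 ± 0.11 for clip (adjusted p = 0.49) and -0.21 ± 0.11 for release (adjusted p = 0.318), and quantile normalization turned the clip change to 0.32 (adjusted p = 0.0284) and gave -0.37 from clip to release (adjusted p = 0.0175).

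Cfd encodes factor D, also called adipsin, the protease that activates factor B and is known as a product of fat cells. Its level was 2.63 in sham 1, -0.20 in sham 2 and -3.35 in the untreated kidney. In clip kidneys it was 1.54, -5.91 and 1.04, and in release kidneys -0.51, 0.01 and 2.88. The range from lowest to highest level within each arm was wider than any difference between arm means. The changes were -0.81 ± 2.17 for clip (adjusted p = 0.783), 1.10 ± 2.17 for release (adjusted p = 0.8) and 1.91 ± 2.17 from clip to release (adjusted p = 0.519). Of the adipocyte markers, Adipoq, Plin1 and Cidec varied between the same arrays, while Retn and Fabp4 did not follow them. Adipoq ran from -6.94 in clip 2 and -5.03 in the untreated kidney to -0.97 in release 3 and -0.75 in sham 1. Plin1 was lowest in the untreated kidney (-6.22) and clip 2 (-5.67) and highest in sham 1 (-1.31) and release 3 (-2.18). Cidec ran from -3.28 in the untreated kidney to 0.57 in sham 1, and Fabp4, which endothelium also expresses, stayed between 5.72 and 6.26. Retn stood at -2.79 to -1.85 in control, -4.32 to -3.42 in clip and -2.25 to -2.02 in release kidneys, and fell by 1.75 in clip kidneys (adjusted p = 0.00129). Of 6 adipocyte markers 5 were tested, Lep was not well above background on any array, and the sums, made up mostly of Fabp4, were 64.4 to 72.5 in control, 53.5 to 54.3 in clip and 71.2 to 77.3 in release kidneys. The part of adipose tissue in the Cfd level was not tested.

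**Figure D3:**
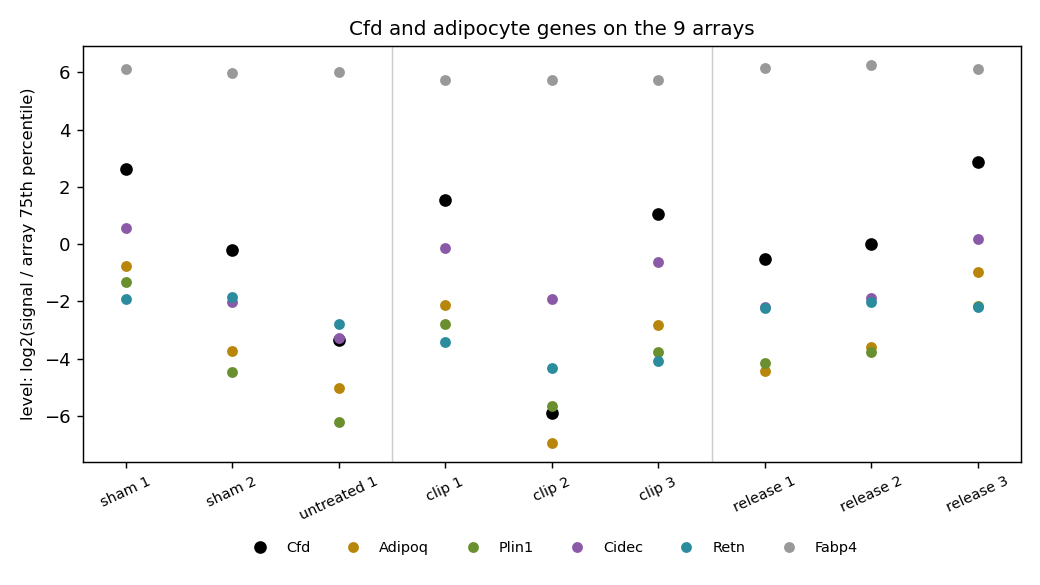
Level of Cfd (black) and of the adipocyte genes Adipoq, Plin1, Cidec, Retn and Fabp4 on the 9 arrays, as log2 of signal over the array's 75th percentile. Cfd, Adipoq, Plin1 and Cidec are all high on sham 1 and release 3 and all low on the untreated array, and Cfd ranges from -5.91 to 2.88. Retn is low on the 3 clip arrays, and Fabp4 varies little.

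In the terminal pathway, Hc, which encodes complement C5, stood at -3.99, -4.46 and -4.58 in control, -1.96, -1.95 and -2.22 in clip and -3.21, -3.30 and -3.55 in release kidneys. The arms did not overlap, and the probe was well above background on 1 of the 3 control arrays and on all 6 others. Hc rose by 2.30 ± 0.17 in clip kidneys (4.94-fold, adjusted p = 1.93e-05; 1.16 after normexp correction), fell by 1.31 ± 0.17 from clip to release and was 0.99 ± 0.17 above control after release (1.99-fold, adjusted p = 0.04). The release call was lost without any 1 of sham 2, untreated 1, clip 1, clip 2, release 1, release 2 or release 3 (adjusted p 0.0595 to 0.135), with quantile normalization (0.86, adjusted p = 0.0661) and with normexp correction (0.28, adjusted p = 0.915). C6, another part of the membrane attack complex, was dim, well above background on 6 of 9 arrays, with levels of -4.83 to -4.18 in control, -4.06 to -3.86 in clip and -4.23 to -3.71 in release kidneys. Its changes did not pass (0.47 ± 0.19 for clip, adjusted p = 0.0753, and 0.55 ± 0.19 for release, adjusted p = 0.162). C7 had no probe. C3ar1, the receptor for the C3a fragment, was well above background on the 3 clip arrays alone, where it stood at -3.40, -2.95 and -3.69. It passed the filter through that arm only, so no test of it is given. The clip mean was at least 1.91-fold above control and at least 1.59-fold above release. These bounds set the clip mean against the lowest signal among probes well above background on the arrays of the other arm. C5ar1, the receptor for C5a, was not well above background on any array.

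The regulators did not move as a group. Factor I (Cfi), the protease that cleaves C3b and C4b, stood at -0.41, 0.11 and 0.35 in control, 3.56, 3.22 and 3.54 in clip and 0.77, 1.03 and 0.90 in release kidneys. The arms did not overlap. Cfi rose by 3.42 ± 0.20 in clip kidneys (10.7-fold, adjusted p = 6.3e-06) and fell by 2.54 ± 0.20 from clip to release (5.81-fold, adjusted p = 3.38e-05). The remaining 0.88 ± 0.20 against control did not pass (adjusted p = 0.0596), and it did pass without the untreated array (adjusted p = 0.0427).

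Of the membrane regulators, Cd55 and Cd59a fell. Cd55, decay-accelerating factor, which breaks up convertases on the cell surface, stood at 0.51, 0.17 and -0.33 in control, -1.26, -1.35 and -1.07 in clip and 0.21, -0.22 and -0.06 in release kidneys. All clip arrays were below the others, and release arrays lay within the control range. Cd55 fell by 1.35 ± 0.21 (2.54-fold, adjusted p = 0.000918) and was at -0.14 ± 0.21 against control after release (adjusted p = 0.728). Cd59a, which blocks assembly of the membrane attack complex, stood at 2.82, 2.69 and 3.01 in control, 2.20, 2.24 and 2.10 in clip and 2.82, 2.73 and 3.0 in release kidneys. Cd59a fell by 0.66 ± 0.11 (1.58-fold, adjusted p = 0.00161), and release kidneys were at 0.01 ± 0.11 against control (adjusted p = 0.965). Its dimmer probe gave -0.56 ± 0.21 for clip (adjusted p = 0.0524). Probes of Cd55 and Cd59a may also detect the near-identical copies Cd55b and Cd59b. Cd59b fell by 1.03 ± 0.11 in clip kidneys by its own probe, and the Cd55b probe did not pass the filter.

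Cr1l, the mouse membrane regulator known as Crry, stood at -1.89 to -1.28 in control, -1.54 to -1.41 in clip and -1.09 to -0.83 in release kidneys. Release kidneys were 0.51 ± 0.16 above clip (adjusted p = 0.0344), which did not hold with the slide as a block (0.0513) or without clip 1, clip 2, clip 3, release 2 or release 3 (0.0629 to 0.101). Against control the release change was 0.55 ± 0.16 (adjusted p = 0.109). Serping1, the inhibitor of C1r and C1s, stood at 1.68 to 2.39 in control, 2.02 to 2.60 in clip and 2.62 to 2.93 in release kidneys. All release arrays lay above all others, but the change of 0.77 ± 0.21 against control did not pass (adjusted p = 0.0958). Cd46, whose mouse form is known mainly from testis, was not well above background on any array.

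Among the coagulation members, F13a1 showed the largest fitted change. It encodes the A subunit of factor XIII, which crosslinks fibrin and is known from macrophages and megakaryocytes. F13a1 stood at -4.52, -5.87 and -2.43 in control, -0.77, -1.07 and -0.47 in clip and -3.68, -3.65 and -2.97 in release kidneys. All clip arrays lay above all others, and the control arrays were spread widely, with 1 of 3 well above background. F13a1 passed the filter through the clip arm only, so its calls were partly fixed by the filter and no p-value of it is given. As most control arrays were not well above background, the fitted change of 3.51 ± 0.72 is not a measured ratio. This change was 3.75, 4.80 and 1.97 within slides 1, 2 and 3. Without the untreated array it was 4.43, without sham 2 it was 2.71 and after normexp correction it was 1.58. From clip to release the fitted fall of F13a1 was 2.67 ± 0.72, and after normexp correction the change was -1.54. Its call in that comparison was lost without clip 3, release 1 or release 2. The macrophage sums given above moved in the same direction as F13a1. Of 8 platelet and megakaryocyte markers 5 were tested. Pf4 was higher in clip kidneys (2.97), as was Ppbp, which was not well above background on any control array. Ppbp passed the filter through the clip arm only, so its call was partly fixed by the filter. Itga2b was lower (-1.24), Gp9 and Gp1bb did not pass, and Gp1ba, Gp6 and Treml1 were not well above background on any array. The platelet sums, made up mostly of Pf4 in clip kidneys, were 0.421 to 0.696 in control, 2.38 to 3.5 in clip and 0.824 to 0.906 in release kidneys. The part of either cell type in the F13a1 level was not tested.

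F3, tissue factor, the starter of coagulation, stood at 0.97, 0.82 and 1.59 in control, 1.42, 1.57 and 2.09 in clip and 0.46, 0.56 and 0.46 in release kidneys. Clip and control overlapped, and all release arrays were below both. The clip change of 0.56 ± 0.23 did not pass (adjusted p = 0.0715) but did with the slide as a block (0.0336) and without the untreated array (0.011). From clip to release F3 fell by 1.20 ± 0.23 (2.3-fold, adjusted p = 0.00343), and its dimmer probe fell by 1.30 ± 0.43 (adjusted p = 0.0426). Against control the release change was -0.64 ± 0.23 (adjusted p = 0.165).

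F2r, the thrombin receptor PAR1, stood at 2.75 to 3.22 in control, 3.49 to 3.92 in clip and 3.06 to 3.39 in release kidneys. It rose by 0.70 ± 0.17 in clip kidneys (1.63-fold, adjusted p = 0.00799), by 0.68, 0.70 and 0.73 within the 3 slides. The change of -0.47 from clip to release missed the threshold (adjusted p = 0.0513, and 0.038 with the slide as a block). Vwf, von Willebrand factor, the endothelial and platelet adhesion protein, stood at 0.51, 0.03 and -0.08 in control, 0.95, 1.09 and 0.53 in clip and 0.81, 1.01 and 0.87 in release kidneys. The clip and release arrays lay above all control arrays. The clip change of 0.70 ± 0.19 passed (1.63-fold, adjusted p = 0.0147), though not without clip 1 or clip 2 (0.0501 to 0.0561). The dimmer Vwf probe gave 0.73 ± 0.30 for clip, which did not pass (adjusted p = 0.0749). The release change of 0.74 ± 0.19 did not pass (adjusted p = 0.0809). Of 8 endothelial markers, Cdh5 was higher in clip kidneys (0.47, adjusted p = 0.0217) and Kdr (-1.25) and Flt1 (-0.36) were lower, with sums of 52.3 to 55.8 in control, 43.7 to 52.2 in clip and 58.2 to 66.1 in release kidneys.

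**Figure D4:**
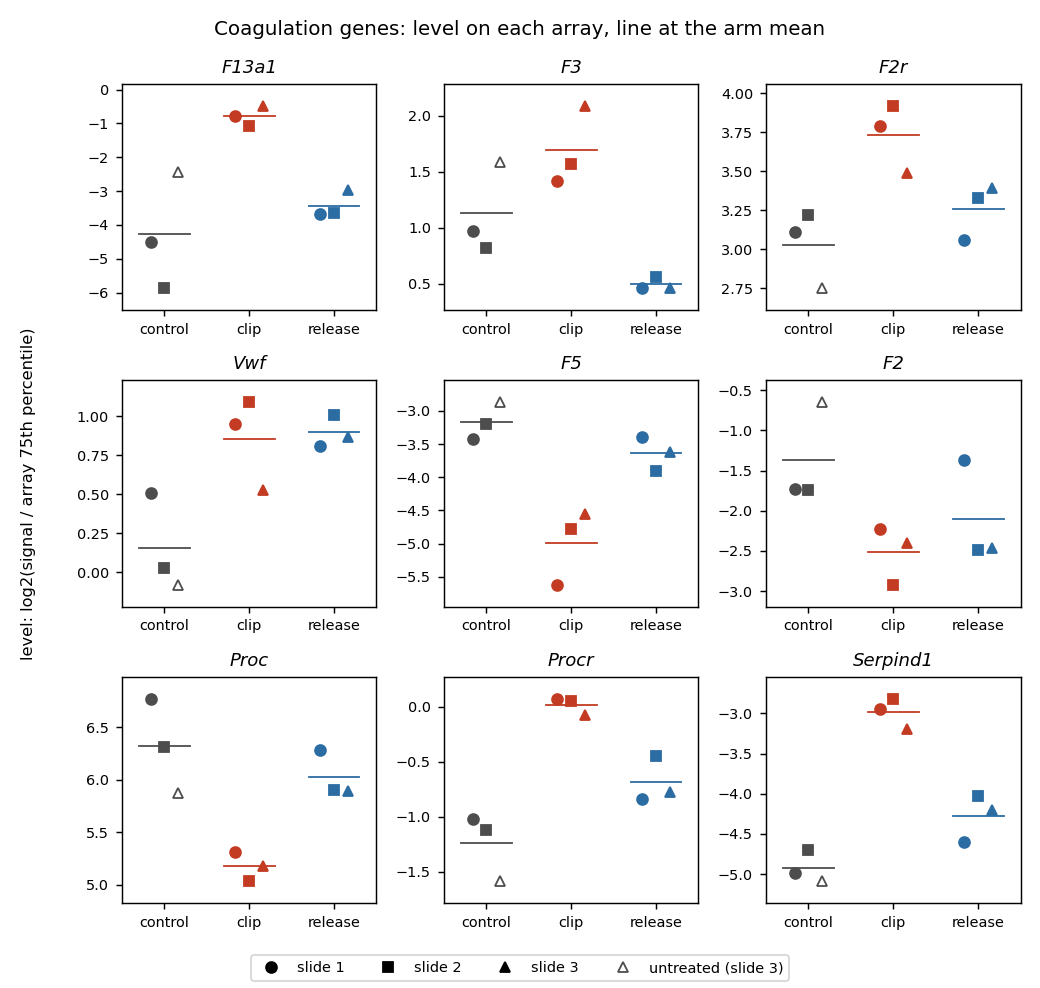
Level of 9 coagulation genes on each of the 9 arrays (log2 of signal over the array's 75th percentile; each panel has its own axis), by arm, with symbols for the slide, an open triangle for the untreated kidney and a line at the arm mean. Clip arrays lie above all others for F13a1, Procr, Serpind1 and F2r and below all others for F5 and Proc, and the F3 release arrays at 0.46 to 0.56 lie below all other F3 arrays.

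F5 and F2 fell in clip kidneys. F5, the cofactor of factor Xa, stood at -3.42, -3.20 and -2.87 in control, where all arrays were well above background, and at -5.62, -4.78 and -4.55 in clip kidneys, where none was. Release arrays stood at -3.40, -3.90 and -3.62, with 1 of 3 well above background. The clip mean of F5, which passed the filter through the control arm, was at least 2.7-fold below control and at least 1.94-fold below release. After normexp correction the F5 changes turned to 0.23 for clip (adjusted p = 0.614) and -0.46 from clip to release (adjusted p = 0.325). F2, which encodes prothrombin, stood at -1.73, -1.74 and -0.65 in control, -2.23, -2.92 and -2.40 in clip and -1.37, -2.49 and -2.46 in release kidneys. The clip change of -1.14 ± 0.39 passed (2.21-fold, adjusted p = 0.039), but not without the untreated array, clip 1, clip 2 or clip 3 (0.0548 to 0.127). Without the untreated array the change was -0.78, and after normexp correction it was -0.34 (adjusted p = 0.36). Release arrays of F2 overlapped both other arms (change -0.73 ± 0.39 against control, adjusted p = 0.317).

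F10, factor X, passed in no comparison, with levels of -3.07 to -1.67 in control, -2.77 to -2.16 in clip and -2.42 to -2.15 in release kidneys. Its clip change was 0.08 ± 0.33 (adjusted p = 0.856), and on slides 1 and 2 alone it was 0.67 (adjusted p = 0.0165). F7, factor VII, the neighbour of F10 on chromosome 8, was well above background on 2 arrays only (clip 1 and clip 2).

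Proc and Procr, the protein C zymogen and its endothelial receptor, moved in opposite directions. Proc stood at 6.77, 6.31 and 5.87 in control, 5.31, 5.03 and 5.18 in clip and 6.28, 5.90 and 5.89 in release kidneys. All clip arrays were below all others. Proc fell by 1.15 ± 0.22 (2.22-fold, adjusted p = 0.00274) and release kidneys were 0.85 ± 0.22 above clip (adjusted p = 0.0148), the latter lost without clip 2 or release 1 (0.0524 to 0.0543). Procr stood at -1.02, -1.12 and -1.59 in control, 0.07, 0.05 and -0.08 in clip and -0.84, -0.45 and -0.78 in release kidneys. The arms did not overlap. Procr rose by 1.26 ± 0.17 (2.39-fold, adjusted p = 0.00037), fell by 0.70 ± 0.17 from clip to release (adjusted p = 0.0101), and was at 0.56 ± 0.17 against control after release (adjusted p = 0.114). Thbd, thrombomodulin, the partner of thrombin in activating protein C, kept to 1.73 to 1.82 in control, 1.74 to 2.02 in clip and 1.95 to 2.15 in release kidneys. Its changes of 0.13 ± 0.10 and 0.27 ± 0.10 did not pass (adjusted p = 0.311 and 0.182).

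Of the other anticoagulants, Serpind1, heparin cofactor II, a thrombin inhibitor, was well above background on the 3 clip arrays alone (-2.95, -2.82 and -3.19). It passed the filter through that arm only, so no p-value of it is given. The clip mean was at least 2.45-fold above control and at least 2-fold above release. Tfpi, which inhibits tissue factor with factor VIIa, had changes of 0.26 ± 0.18 for clip (adjusted p = 0.265) and -0.12 ± 0.18 for release (adjusted p = 0.728). Its relative Tfpi2 had 0.05 ± 0.45 (adjusted p = 0.935) and -0.17 ± 0.45 (adjusted p = 0.855). Neither of these passed in any of the 3 comparisons. Serpina5, the protein C inhibitor, had 2 probes, and neither was well above background on any array.

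The genes that fell in clip kidneys moved beside the tubule markers. Of the 6 proximal tubule markers 5 were lower in clip kidneys (Aqp1 did not pass, adjusted p = 0.33), and all 6 thick limb and distal markers were lower, with the sums given above. After release none of the 12 differed from control past the threshold. The part of the tubule in the levels of Cd55, Cd59a, Colec11, F2, F5 and Proc was not tested.

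Read over the 3 comparisons, 4 members rose with obstruction, fell with release and remained above control (C1qb, C1qc, C3 and Hc). Another 9 rose and fell again, without passing against control after release: C1qa, C2, C4b, Cfi, Cfp, C3ar1, F13a1, Procr and Serpind1. C1ra, F2r and Vwf rose with obstruction and passed in no other comparison. Falls followed by rises were found for 5 members (Cd55, Cd59a, Colec11, F5 and Proc), and F2 fell without a later call. C1s1, Cr1l and F3 were called only with the release arm, and 9 members were called in none of the 3 comparisons. Of the members with calls, C3ar1, F13a1, F5 and Serpind1 passed the filter through 1 arm. A miss against control does not show that a level had returned.

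Other genes of the same systems, from lists of 32 complement and 36 coagulation and fibrinolysis genes, changed in both directions too. Of 20 complement genes tested, 10 rose and 8 fell in clip kidneys, 1 was higher and 0 lower after release against control, and from clip to release 8 rose and 7 fell. The shares of all genes called were 21.4% higher and 27.5% lower for clip, 1.46% higher and 0.372% lower for release, and 23.6% higher and 17.4% lower from clip to release. The counts include C4bp and Itgam, which passed the filter through the clip arm only, so that their calls were partly fixed by the filter. They also include Cr2, which fell in clip kidneys and was not well above background on any clip array. Clu, clusterin, rose by 3.34 ± 0.12 in clip kidneys (10.1-fold, adjusted p = 1.23e-06). C4bp, a fluid-phase regulator, was well above background on the clip arrays alone, where its mean was at least 6.48-fold above control. The largest falls in this list were those of C8a and C8g, which encode 2 chains of C8 in the membrane attack complex. C8a fell by 2.84 ± 0.20 (7.15-fold, adjusted p = 1.48e-05) and C8g fell by 2.83 ± 0.18 (7.13-fold, adjusted p = 8.86e-06). Both rose again from clip to release (2.66 and 2.48).

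Of 30 coagulation and fibrinolysis genes tested, 12 rose and 10 fell in clip kidneys, 1 was higher and 0 lower after release against control, and from clip to release 10 rose and 14 fell, beside the same shares of all genes. These counts include Serpina10, which passed the filter only through the clip arm, and Klkb1, which would not have passed it without the release arm. Calls of these genes were partly fixed by the filter. Fgb, the fibrinogen beta chain, rose by 8.81 ± 0.28 in clip kidneys (adjusted p = 1.04e-06), with 2 of 3 control arrays well above background. Fgg, the fibrinogen gamma chain, rose by 6.40 ± 0.17 (84.3-fold, adjusted p = 5.72e-07). Serpina10, the protein Z-dependent inhibitor, was not well above background on any control array, and its clip mean was at least 37.2-fold above control. Proz, protein Z, fell by 2.53 ± 0.27 (5.77-fold, adjusted p = 0.000116), and F13b, the B subunit of factor XIII, fell by 2.44 ± 0.16 (5.41-fold, adjusted p = 1.08e-05). Klkb1, plasma prekallikrein, was not well above background on any clip array, where its mean was at least 1.92-fold below control. From clip to release Fgb fell by 7.52 ± 0.28 and Fgg fell by 5.95 ± 0.17, while Klkb1 (at least 2.68-fold) and Proz (by 2.08 ± 0.27) were higher. Pros1, protein S, the cofactor of activated protein C, was the gene of this list above control after release, by 0.52 ± 0.09 (1.43-fold, adjusted p = 0.0424).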

How the data were processed

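The deposited scanner files hold 1 intensity per spot. Feature Extraction 10.7.3.1 had subtracted its background, per the file headers, and no scaling between arrays had been done. RNA (500 ng per kidney) was labelled with Cy3, per the labels. A deposited table of log2 values was not used: of its 8142 rows with values, 8136 lay within 0.02 (root mean square) of another probe and 0 of their own. Flags for background, saturation and outliers are other deposited columns. Here each intensity was set over the 75th percentile of its array's non-control spots (320.4 to 439.2) and logged to base 2. Of 41174 probes 26690 had a symbol, 23562 were well above background on at least 3 arrays (21 of them left out for outlier flags), and 0 spots were saturated. The number of arrays limits the precision.

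A limma 3.58.1 model (R 4.3.3) of 3 arms was fitted to all 9 arrays and 17740 genes, with Benjamini-Hochberg adjustment, and was tested on simulated data. Every tested member is named. Of the other lists, the 2 largest fitted rises and falls past the threshold are named in each comparison. Fgg for clip and F13b were added after their values were seen, since dim probes have bounds only. Itgam and Cr2 are named only for the limit that the filter sets on the counts. Members and lists were chosen with earlier results of these data known. Alternatives were normexp correction (offset 50, on median spot and background signals in place of the planned mean signals), quantile normalization, no filter, a filter on all arrays, the mean of a gene's probes, slide and replicate blocks, sham arrays alone, 2 arms alone and each array left out. Slides 1 and 2 alone were added after seeing the data. Replicate numbers pair clip with release (correlation of deviations 0.22 to 0.269) and sham with both (0.161 to 0.231). They do not pair the untreated array (-0.209 with clip 1). Arrays of the same slide deviated together (0.161 to 0.281 in 9 pairs, against -0.239 to 0.0029 in 18 pairs on different slides).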

Additional observations from a re-analysis of the deposited data

How the results depend on the processing

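Of the member calls, 17 of 22 for clip against control and 13 of 21 for release against clip passed under all alternatives that kept the gene. For release against control 0 of 5 did. The 17 include C3ar1, F13a1 and Serpind1, whose calls were partly fixed by the filter, and Hc, which is also among the 13. The filter on all arrays left these genes out, so it could not test their calls. The counts of members that rose or fell in clip kidneys stayed within 1.5 times under every alternative except normexp correction, which left 3 falls and 5622 genes called in all, against 6 and 8676. For release against control, 5 members and 325 genes were called. The genes called became 1 with normexp (0 members, 1343 genes at an unadjusted p under 0.05), 115 with quantile normalization, 12 with no filter on dim probes (0 members, 4932 unadjusted) and 1163 with the slide block (9 members). With the replicate block 203 genes and 1 member were called. The arrays bear out this pairing between sham, clip and release but not for the untreated array. Same-numbered arrays that deviated together also shared a slide, so number and slide cannot be told apart there. With the arrays of the 2 arms alone 0 genes and 0 members were called (3384 unadjusted), and with slides 1 and 2 alone 2 genes and 0 members (3791 unadjusted). Leaving out 1 array gave 2 to 343 genes and 0 to 4 members: 2 without release 2, 16 without sham 2, 50 without release 3, 58 without sham 1, 73 without clip 1, 113 without clip 2, 174 without release 1 and 212 without clip 3. For release against clip, 4136 genes were called with normexp and 13597 with no filter, against 7270. The share of called genes that were higher was 64.6% with the slide block and 91.7% with no filter in release against control (79.7% as reported), and 77.3% with no filter in release against clip (57.5%). Quantile normalization turned the balance to 52.9% higher for clip against control (43.7%) and 48% for release against clip. The called changes of F5 turned sign with normexp (0.23 for clip and -0.46 for release against clip) and were not called there (adjusted p = 0.614 and 0.325). The clip change of Cfb, not called as reported (-0.10), was called higher with quantile normalization (0.32, adjusted p = 0.0284). Changes that were called neither way also turned sign, 9 of them with normexp, such as those of Masp2 (0.40) and Cfd (0.39) for clip. The median of all genes moved from -0.09 to 0.10 for clip against control with normexp, so that small changes are relative to that shift. The cause was not tested. With 3 arrays per arm, dim probes such as Hc, C6, F5, F13a1, C3ar1 and Serpind1 are the least certain.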
